A study of Mus musculus with 6 samples.

Results

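The 10 genes described here are of the annexin, S100 and galectin families, and their transcripts were followed in regulatory T cells (Treg cells), a CD4 T cell type that keeps immune responses in check. They are the annexin genes Anxa1, Anxa2, Anxa4, Anxa5 and Anxa6, the S100 genes S100a4, S100a6, S100a10 and S100a11, and the galectin gene Lgals1. Every probe set that the platform annotation lists under one of these 10 symbols alone was taken, which gave 20 of the 45101 probe sets on the array for 9 of the 10 genes, out of 18194 genes in all. The probe set of S100a11 is listed with other genes too and was kept apart. The symbols were picked with values of all 6 arrays known, and which values decided the choice was not recorded, so the levels and differences of these genes are given as descriptions, without a p-value.

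Cells came from mice of the C57BL/6 strain and were sorted by flow cytometry. The genotypes were a Foxo1 knockout that also carried a constitutively active form of Foxo1 (Foxo1KO/Foxo1AAA, 1 array), the knockout alone (Foxo1KO, 2 arrays) and the active form on its own (Foxo1AAA, 1 array), beside wild type (WT, 2 arrays). Foxo1 is a forkhead transcription factor that is kept out of the nucleus when Akt phosphorylates it. The design asks which transcripts differ without Foxo1 and whether the active form brings them back. The sorting gates, the sexes and ages of the mice, the promoter that drives the active form and the deleted part of Foxo1 are not given in the sources used here. No label says how many mice gave each array, so errors measure the spread between these arrays. Each lone array was assumed to vary like the replicated ones.

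Annexins are proteins that bind acidic phospholipids of membranes when calcium is present. S100 proteins are small calcium sensors, and several of them pair with an annexin: S100a10 with Anxa2, and S100a11 with Anxa1. Galectins bind beta-galactoside sugars on glycoproteins and can act outside the cell. In T cells, genes such as S100a4, S100a6, Anxa1, Anxa2 and Lgals1 are usually more abundant in activated, effector and memory cells than in naive cells.

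Values are on the log2 scale, so a difference of 1 is a doubling. A probe set was called different at a Benjamini-Hochberg adjusted p under 0.05 in limma, adjusted over all 45101 probe sets, and a gene was called by its brightest probe set. The Treg markers Ikzf2 and Ctla4 were bright on every array (13.26 to 13.63 and 12.29 to 13.06), whereas the probe set of Foxp3 was dim (5.10 to 5.58). Of 8 Treg and T cell markers measured, 1, Cd4, was called lower in Foxo1KO than in WT cells (-0.37), beside 6.77% of all genes. None was called higher there (0), beside 7.34% of all genes. Foxp3 was the 1 of these 8 called lower in Foxo1KO/Foxo1AAA than in Foxo1KO cells (-0.46), beside 17.5% of all genes. The brightest Foxo1 probe set read 9.66 on the Foxo1KO/Foxo1AAA array, 10.65 and 10.87 on the Foxo1KO arrays, 10.71 on the Foxo1AAA array, and 11.03 and 11.35 on the WT arrays. Whether its probes lie in the deleted part is not known here, so it checks the labels only weakly. Xist, which is transcribed from the inactive X of female cells, read 6.27 on the Foxo1KO/Foxo1AAA array and 6.04 on the Foxo1AAA array, against 12.03 to 13.43 on the other 4 arrays. The Y-linked gene Eif2s3y read 4.05 and 9.91 on the Foxo1KO arrays and 3.91 and 10.09 on the WT arrays. It read 10.56 on the Foxo1KO/Foxo1AAA array and 10.59 on the Foxo1AAA array. The arrays with the active form thus held male signal only, replicate 1 of Foxo1KO and WT female signal only, and replicate 2 both. Replicates of a group therefore did not come from the same set of mice. Sex and the active form can not be told apart in any comparison that sets an array with the active form against Foxo1KO or WT.

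Markers of other cells differed on the arrays with the active form as well. Beside the counts below, 12.2% of all genes were called higher and 10.9% lower in Foxo1KO/Foxo1AAA than in WT cells. In Foxo1AAA against WT cells the shares were 10.4% and 12.1%. Of all genes, 13.9% were called higher in Foxo1KO/Foxo1AAA than in Foxo1KO cells, and 7.34% in Foxo1KO than in WT cells. These lists hold few genes, and a count near its share is not read as a result. Of 10 myeloid markers measured, of which S100a8 and S100a9 are S100 genes too, 8 were called higher in Foxo1KO/Foxo1AAA than in WT cells, 6 were called higher than in Foxo1KO cells, 8 were called higher in Foxo1AAA than in WT cells, and 3 were called higher in Foxo1KO than in WT cells. Their summed linear signal was 11250 on the Foxo1KO/Foxo1AAA array, 2396 and 1588 on the Foxo1KO arrays, 9849 on the Foxo1AAA array, and 1161 and 1378 on the WT arrays. Some of these markers were dim on every array, such as Itgam (4.40 to 5.27), where 25% of all probe sets had a mean under 4.97. Of the 10, Fcgr1 and S100a8 did not follow the others. By its brightest probe set Fcgr1 read lowest on the 2 arrays with the active form (6.69 and 6.72, against 6.85 to 7.18). S100a8 read highest on Foxo1KO replicate 1 (6.51, against 5.65 and 5.70 on the arrays with the active form). The macrophage receptor gene Csf1r read 12.38 on the Foxo1KO/Foxo1AAA array, 9.12 and 8.52 on the Foxo1KO arrays, 11.99 on the Foxo1AAA array, and 8.36 and 8.93 on the WT arrays. Of 4 B cell markers measured, 3 were called higher in Foxo1KO/Foxo1AAA and 3 in Foxo1AAA than in WT cells, and their summed signal was 1431 on the Foxo1KO/Foxo1AAA array, 840 and 530 on the Foxo1KO arrays, 1681 on the Foxo1AAA array, and 520 and 592 on the WT arrays. The dendritic cell list had 3 of 5 called higher and 1 called lower in each of these 2 comparisons, and the CD8 T and NK cell list had 1 of 4 called higher in each and 1 called lower in Foxo1AAA cells. The stromal and endothelial list (5 measured) and the erythroid list (3 measured) had 0 called higher in either, and 1 stromal gene was called lower in Foxo1KO/Foxo1AAA cells. At an unadjusted p under 0.05 the stromal list had 0 higher in Foxo1KO/Foxo1AAA and 1 in Foxo1AAA, the erythroid list 1 and 0. In these bulk samples, more cells of a type and more RNA per cell cannot be told apart. The part of the myeloid and B cell signal in the differences given below, those of Foxo1KO from WT cells included, was not tested.

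**Figure D1:**
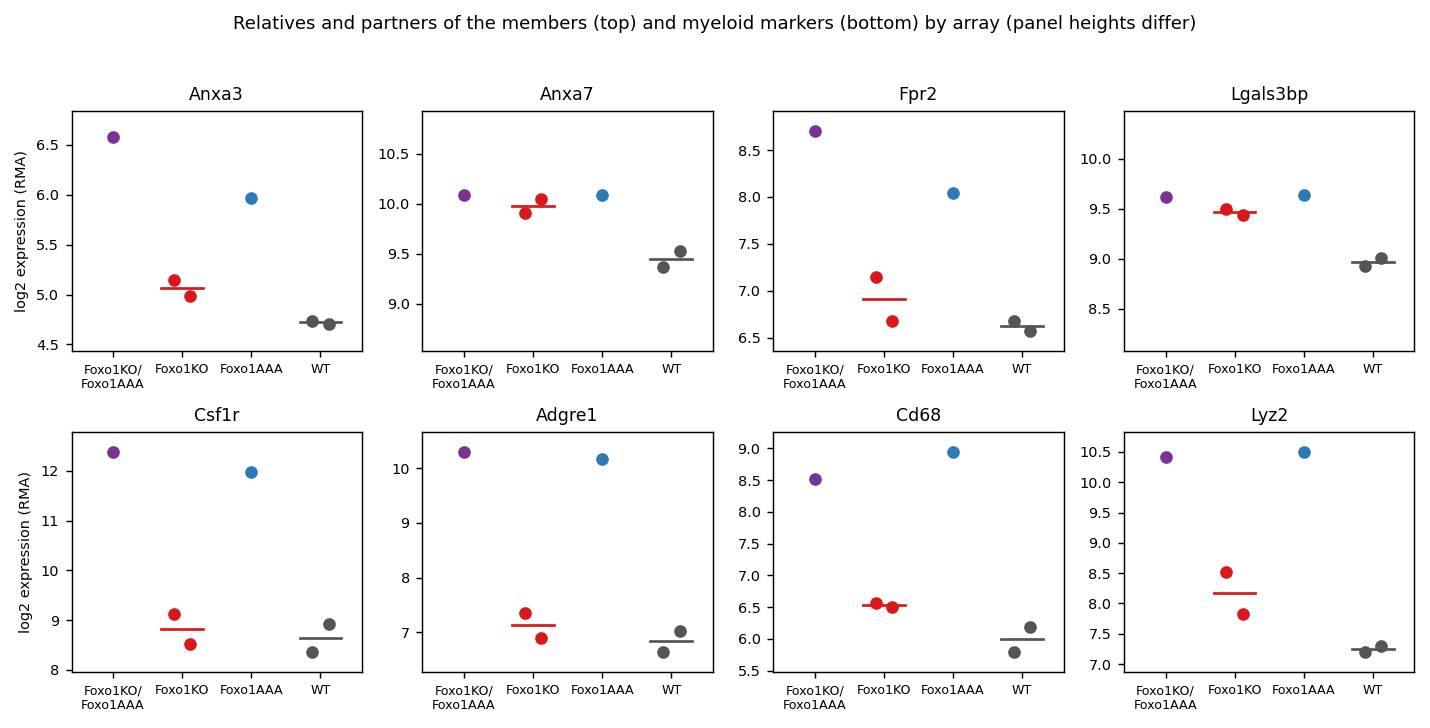
Log2 values (vertical axes) on each of the 6 arrays (points, by group along the horizontal axis) for Anxa3, Anxa7, Fpr2 and Lgals3bp in the top row and for the myeloid markers Csf1r, Adgre1, Cd68 and Lyz2 in the bottom row. Csf1r read 12.38 and 11.99 on the arrays with the active form, against 8.36 to 9.12 on the other 4, and the plot shows Anxa3 and Fpr2 highest on the same 2 arrays. The myeloid markers Fcgr1 and S100a8, not shown, were not highest on these 2 arrays.

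Without Foxo1, most of the 9 genes with a probe set of their own were more abundant. In Foxo1KO against WT cells 8 of 9 genes were called higher and 0 lower (also 0 at an unadjusted p under 0.05), where 7.34% of all genes were called higher and 6.77% lower. On the level of probe sets 12 of 20 were called higher (5.37% of all probe sets) and 0 lower (8.34%). The median log2 difference was 0.84 over the 9 genes, beside 0.03 over all genes. Both Foxo1KO arrays lay above both WT arrays for 9 of 9 genes, a pattern seen in 31.3% of all genes, and for 17 of 20 probe sets, beside 27.2% of all probe sets. Both Foxo1KO arrays lay below both WT arrays for 0 of 9 genes and 0 of 20 probe sets, beside 23.0% of all genes and 25.6% of all probe sets. Since the symbols were picked with these values known, nothing is read from the counts. The differences ran from 0.12 for S100a10 to 3.86 for Anxa1.

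**Figure D2:**
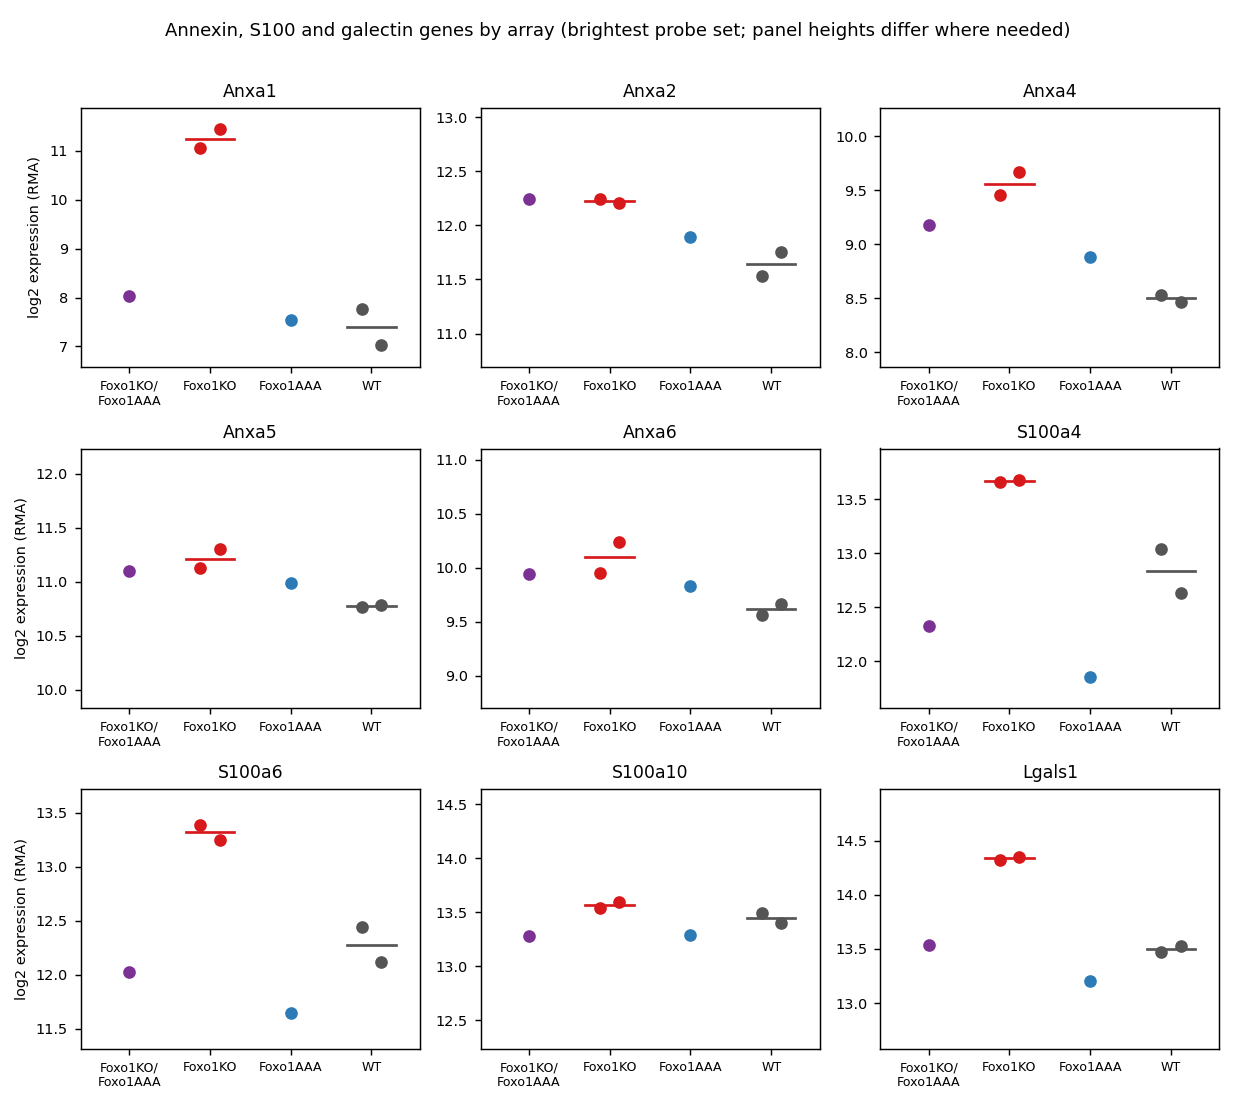
Log2 values (vertical axes) of the brightest probe set of each of the 9 genes on each of the 6 arrays (points), grouped along the horizontal axis by genotype with WT last. The Foxo1KO arrays stand highest for every gene shown but Anxa2, and by the most for Anxa1 (11.06 and 11.44). The Foxo1KO/Foxo1AAA array lies above both WT arrays for Anxa2 and Anxa4 (12.25 and 9.18), and also for Anxa1, Anxa5, Anxa6 and, barely, Lgals1.

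Anxa1 showed by far the widest range of these genes. It encodes a phospholipid-binding protein that is induced by glucocorticoids and that acts on formyl peptide receptors to limit inflammation. Its main probe set, 1448213_at, read 8.03 on the Foxo1KO/Foxo1AAA array, 11.06 and 11.44 on the Foxo1KO arrays, 7.55 on the Foxo1AAA array, and 7.77 and 7.02 on the WT arrays. Both Foxo1KO arrays stood more than 3 log2 units above every other array, and the remaining 4 lay close together. Anxa1 was 3.86 ± 0.22 (log2, SE) higher in Foxo1KO than in WT cells, which is 14.5-fold. Foxo1KO/Foxo1AAA minus Foxo1KO cells gave -3.22 ± 0.27, 9.30-fold lower. The Foxo1KO/Foxo1AAA array was 0.64 above the WT mean and the Foxo1AAA array 0.16 above it, neither called. Both moved with the WT array left out: the first became 1.01 and was called without WT replicate 1 and 0.27 without WT replicate 2, and the second became 0.53 and -0.22, so its sign is not settled. The second probe set, 1444016_at, was dim (4.29 to 4.65), among the lowest 25% of probe sets by mean. Averaging it with the main one gave 2.00 for Foxo1KO against WT and -1.71 for Foxo1KO/Foxo1AAA against Foxo1KO.

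The knockout difference of Anxa1, a gene picked with these values known, was smaller on the arrays with the active form. With it, the Foxo1KO/Foxo1AAA array exceeded the Foxo1AAA array by 0.48, whereas without it Foxo1KO exceeded WT by 3.86, a difference of -3.37 ± 0.39 (SE). Anxa1 was the only one of the 9 genes called in this interaction, which was called in the lower direction for 1.75% of all genes and in the higher direction for 1.6%, and 0 of 9 genes were called higher (0 at an unadjusted p under 0.05, limma). By probe set, 1 of 20 was called lower, beside 1.25% of all, and 0 higher, beside 1.73%. The call of Anxa1 ended without Foxo1KO replicate 2 (-3.18). Over the 9 genes the median of the interaction was -0.37, beside -0.008 over all genes, and 0 of 9 lay above 0. The difference with the active form rests on 1 Foxo1KO/Foxo1AAA and 1 Foxo1AAA array.

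The bases before the annotated start of Anxa1 and of 3 other genes are shown because these genes differed most in pattern. Anxa1 had the widest range, and S100a4 and S100a6 were neighbours that moved together. The main probe set of Anxa2 was as high on the Foxo1KO/Foxo1AAA array as on the Foxo1KO arrays. Each stretch shown is the 200 bases upstream of the start in RefSeq on GRCm38.p6, 5′ to 3′ on the gene's strand. Capitals mark TATAAA, the TATA box letters, or TGANTCA, the AP-1 motif, wherever a search of both strands found them.
Anxa1, chr19:20390672-20390871, minus strand: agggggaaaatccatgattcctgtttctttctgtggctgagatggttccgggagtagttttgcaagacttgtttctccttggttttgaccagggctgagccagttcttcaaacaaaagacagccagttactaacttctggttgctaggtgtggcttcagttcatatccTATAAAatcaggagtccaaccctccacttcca
S100a4, chr3:90603570-90603769, plus strand: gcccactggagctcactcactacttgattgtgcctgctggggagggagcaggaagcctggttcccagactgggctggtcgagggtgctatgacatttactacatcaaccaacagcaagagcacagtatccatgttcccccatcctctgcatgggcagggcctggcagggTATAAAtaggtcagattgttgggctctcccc
S100a6, chr3:90612694-90612893, plus strand: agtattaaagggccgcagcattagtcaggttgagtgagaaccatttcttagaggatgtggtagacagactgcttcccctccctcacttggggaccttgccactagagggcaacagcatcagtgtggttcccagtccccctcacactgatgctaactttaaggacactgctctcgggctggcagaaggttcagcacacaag
Anxa2, chr9:69453483-69453682, plus strand: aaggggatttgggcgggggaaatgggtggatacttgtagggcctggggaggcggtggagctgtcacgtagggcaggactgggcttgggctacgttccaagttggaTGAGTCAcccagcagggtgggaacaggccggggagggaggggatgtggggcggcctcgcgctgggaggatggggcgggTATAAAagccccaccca

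In all, 7 of the 10 symbols matched the RefSeq promoter table, with 8 promoters since Anxa4 has 2. TATAAA began 32 bases before the start in Anxa1, 31 in S100a4 and 17 in Anxa2, that is in 3 of 8 promoters, and it was found in 9.96% of the 32851 promoters searched over the same length. TGANTCA, which reads the same on both strands, was found in 2 of 8, 95 bases before the start in Anxa2 and 136 and 38 bases before it in S100a11, beside 5.48% of all promoters. The forkhead motifs GTAAACA and ATAAACA were in 0 of 8, beside 2.51% and 3.17% of all promoters. ATAAACA and TATAAA can share letters. These matches describe the letters in this window only.

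S100a4, S100a6 and Lgals1 were highest in Foxo1KO cells and lowest in Foxo1AAA cells. S100a4 encodes a calcium sensor that binds non-muscle myosin and is linked to cell motility. Its probe set 1424542_at read 12.32 on the Foxo1KO/Foxo1AAA array, 13.66 and 13.68 on the Foxo1KO arrays, 11.86 on the Foxo1AAA array, and 13.04 and 12.63 on the WT arrays. The 4 genotypes did not overlap, in the order Foxo1KO, WT, Foxo1KO/Foxo1AAA and Foxo1AAA, and neither neighbouring pair WT and Foxo1KO/Foxo1AAA nor Foxo1KO/Foxo1AAA and Foxo1AAA was called. S100a4 was 0.84 ± 0.14 higher in Foxo1KO than in WT cells (1.78-fold). The difference was -1.35 ± 0.17 in Foxo1KO/Foxo1AAA against Foxo1KO cells (2.54-fold lower) and -0.98 ± 0.17 in Foxo1AAA against WT cells. The call against WT in the knockout ended without Foxo1KO replicate 1 (0.84) and without Foxo1KO replicate 2 (0.83). In Foxo1KO/Foxo1AAA against WT cells its difference of -0.51 was not called, but it was without WT replicate 2 (-0.71).

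S100a6 encodes calcyclin, a calcium sensor named for its link to the cell cycle. Probe set 1421375_a_at read 12.02 on the Foxo1KO/Foxo1AAA array, 13.39 and 13.24 on the Foxo1KO arrays, 11.64 on the Foxo1AAA array, and 12.44 and 12.12 on the WT arrays. The order of the genotypes was that of S100a4, again without overlap. It was 1.04 ± 0.13 higher in Foxo1KO than in WT cells (2.05-fold) and stayed called whichever replicated array was left out (0.88 to 1.19). In Foxo1KO/Foxo1AAA against Foxo1KO cells the difference was -1.29 ± 0.16 (2.45-fold lower). The difference of Foxo1AAA from WT cells was -0.64 ± 0.16 and lost its call without WT replicate 1 (-0.48).

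S100a4, S100a5 and S100a6 follow each other on chromosome 3 in the RefSeq annotation of GRCm38.p6, and all 4 S100 genes chosen here lie on that chromosome. S100a5, which lies between S100a4 and S100a6, was dim: 4.50 on the Foxo1KO/Foxo1AAA array, 5.16 and 5.21 on the Foxo1KO arrays, 4.80 on the Foxo1AAA array, and 4.86 and 5.07 on the WT arrays. It fell by 0.69 in Foxo1KO/Foxo1AAA against Foxo1KO cells (adjusted p = 0.00658, limma), whereas Foxo1KO against WT gave 0.22, which was not called.

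Lgals1 encodes galectin-1, a secreted sugar-binding protein that can kill activated T cells and that Treg cells are known to use in suppression. Its probe sets agreed in order. Probe set 1455439_a_at read 13.54 on the Foxo1KO/Foxo1AAA array, 14.33 and 14.35 on the Foxo1KO arrays, 13.20 on the Foxo1AAA array, and 13.47 and 13.53 on the WT arrays. Probe set 1419573_a_at read 12.96 on the Foxo1KO/Foxo1AAA array, 13.98 and 14.12 on the Foxo1KO arrays, 12.55 on the Foxo1AAA array, and 12.97 and 12.93 on the WT arrays. Both Foxo1KO arrays stood above all others, the Foxo1KO/Foxo1AAA array lay within about 0.1 of the WT arrays, and the Foxo1AAA array was the lowest. Lgals1 was 0.84 ± 0.10 higher in Foxo1KO than in WT cells by the brighter probe set (1.79-fold) and 1.10 higher by the other. In Foxo1KO/Foxo1AAA against Foxo1KO cells the values were -0.80 ± 0.12 and -1.09. In Foxo1AAA against WT cells the brighter probe set gave -0.30, not called, and the other -0.41, which was called. Values above 14 are near the top of the array's range, where differences are compressed.

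Together with Anxa1, these were the 4 of 9 genes called lower in Foxo1KO/Foxo1AAA than in Foxo1KO cells, where 17.5% of all genes were called lower and 13.9% higher, and 7 of 20 probe sets were called lower, beside 16.2% of all. None of the 9 was called higher (0 at an unadjusted p under 0.05, limma), and their median difference was -0.38, beside -0.07 over all genes. The 4 calls held whichever replicated array was left out. In Foxo1AAA against WT cells S100a4 and S100a6 were the 2 genes called lower (12.1% of all genes), and 0 of 9 were called higher (10.4% of all genes; 1 at an unadjusted p under 0.05, limma). The median of the Foxo1AAA array minus that of the WT arrays was -0.11, and both calls held after each array was centred on its median. The summed myeloid signal was highest on the 2 arrays where S100a4 and S100a6 were lowest, and a link between these was not tested.

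By their brightest probe sets, Anxa2, Anxa4, Anxa5 and Anxa6 were higher in Foxo1KO than in WT cells. They were not called lower in Foxo1KO/Foxo1AAA than in Foxo1KO cells. Anxa2 encodes a membrane-binding protein that forms a complex with S100a10 and binds plasminogen and its activators at the cell surface. Its main probe set, 1419091_a_at, read 12.25 on the Foxo1KO/Foxo1AAA array, 12.25 and 12.20 on the Foxo1KO arrays, 11.89 on the Foxo1AAA array, and 11.53 and 11.76 on the WT arrays. The Foxo1KO/Foxo1AAA and Foxo1KO arrays lay within 0.05 of each other and above both WT arrays. Anxa2 was 0.58 ± 0.11 higher in Foxo1KO than in WT cells, a call that ended without Foxo1KO replicate 1 (0.56), Foxo1KO replicate 2 (0.60) or WT replicate 1 (0.47). Foxo1KO/Foxo1AAA cells differed from Foxo1KO cells by 0.02 and from WT cells by 0.60, and the second of these was called, though not without WT replicate 1 (0.49). Probe set 1437692_x_at (6.67 to 7.13) had Foxo1KO highest and the Foxo1KO/Foxo1AAA array (6.71) within the WT values of 6.67 and 6.80. It was called lower in Foxo1KO/Foxo1AAA than in Foxo1KO cells (-0.39), which the main probe set was not. Probe set 1437691_at was dim (3.48 to 3.96). The mean of the 3 probe sets gave 0.33 for Foxo1KO against WT, and 0.27 for Foxo1KO/Foxo1AAA against WT, which was not called.

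Anxa4 encodes an annexin best known from epithelial cells. Probe set 1421223_a_at read 9.18 on the Foxo1KO/Foxo1AAA array, 9.46 and 9.66 on the Foxo1KO arrays, 8.88 on the Foxo1AAA array, and 8.53 and 8.46 on the WT arrays. Probe set 1424176_a_at read 7.42 on the Foxo1KO/Foxo1AAA array, 7.03 and 7.36 on the Foxo1KO arrays, 7.23 on the Foxo1AAA array, and 6.45 and 6.13 on the WT arrays. Probe set 1457658_x_at read 6.28 on the Foxo1KO/Foxo1AAA array, 6.22 and 6.10 on the Foxo1KO arrays, 6.43 on the Foxo1AAA array, and 5.58 and 5.47 on the WT arrays. By each of the 3 probe sets the WT arrays were the lowest of the 6, and by the dimmer pair the arrays with the active form were at least as high as the mean of Foxo1KO. Anxa4 was 1.06 ± 0.11 higher in Foxo1KO than in WT cells (2.09-fold), and stayed called whichever replicated array was left out (0.96 to 1.17). Foxo1KO/Foxo1AAA minus Foxo1KO gave -0.38, which was called only when 1 probe set a gene was tested. Foxo1KO/Foxo1AAA cells were 0.68 above WT cells by the brightest probe set and 1.13 and 0.76 above by the others, all called. Foxo1AAA cells were 0.38 above WT cells by the brightest probe set, not called, and 0.95 and 0.91 above by the others, both called.

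Anxa5 encodes the phosphatidylserine-binding protein used to stain dying cells. Probe set 1425567_a_at read 11.10 on the Foxo1KO/Foxo1AAA array, 11.13 and 11.30 on the Foxo1KO arrays, 10.99 on the Foxo1AAA array, and 10.76 and 10.79 on the WT arrays. The WT arrays were the lowest. The difference of Foxo1KO from WT cells was 0.44 ± 0.11. Leaving out any replicated array ended its call (0.35 to 0.53).

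Anxa6 encodes an annexin with a doubled core that binds membranes and the cytoskeleton. Probe set 1415818_at read 9.94 on the Foxo1KO/Foxo1AAA array, 9.95 and 10.24 on the Foxo1KO arrays, 9.83 on the Foxo1AAA array, and 9.57 and 9.67 on the WT arrays. Here too the WT arrays were lowest. The difference of Foxo1KO from WT cells was 0.48 ± 0.12, and its call ended without Foxo1KO replicate 2 (0.33), WT replicate 1 (0.43) or WT replicate 2 (0.53). The probe sets of Anxa6 disagreed: 1429247_at read 8.60 on the Foxo1KO/Foxo1AAA array, 8.997 and 9.57 on the Foxo1KO arrays, 8.77 on the Foxo1AAA array, and 9.30 and 9.07 on the WT arrays, so that Foxo1KO and WT overlapped and the arrays with the active form were lowest. It was called lower in Foxo1KO/Foxo1AAA than in Foxo1KO cells (-0.68). Probe set 1442288_at read 8.60 on the Foxo1KO/Foxo1AAA array, 8.88 and 9.20 on the Foxo1KO arrays, 8.80 on the Foxo1AAA array, and 8.90 and 8.64 on the WT arrays, and 1429246_a_at read 8.60 on the Foxo1KO/Foxo1AAA array, 8.46 and 8.80 on the Foxo1KO arrays, 8.34 on the Foxo1AAA array, and 8.26 and 8.08 on the WT arrays. Neither was called in Foxo1KO against WT cells (0.27 and 0.46). The mean of the 4 probe sets gave 0.33 for Foxo1KO against WT, not called.

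Anxa2 and Anxa4 were the 2 of 9 genes called higher in Foxo1KO/Foxo1AAA than in WT cells, where 12.2% of all genes were called higher and 10.9% lower. By probe set, 4 of 20 were called higher, beside 11.7% of all, and 0 lower, beside 12.7%. None of the 9 genes was called lower there (1 at an unadjusted p under 0.05, limma), and S100a4 was so called in some alternatives. Foxo1KO/Foxo1AAA and Foxo1AAA cells differed in 0 of 9 genes by this test (2 higher and 0 lower at an unadjusted p under 0.05), where 0.044% of all genes were called higher and 0.011% lower. The same held by probe set, with 0 of 20 called, beside 0.0377% of all called higher and 0.0177% lower. The comparisons with WT share the 2 WT arrays, and those with Foxo1KO share the 2 Foxo1KO arrays.

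**Figure D3:**
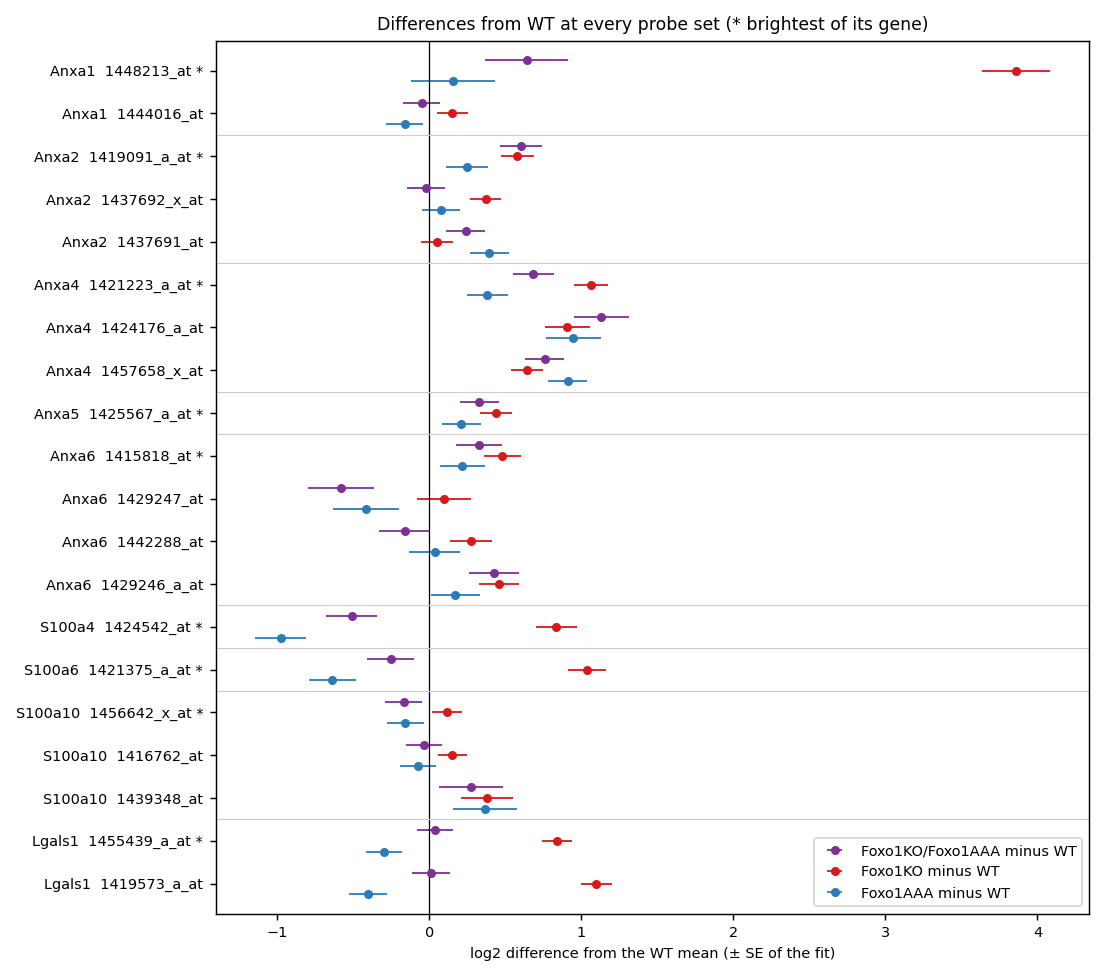
Log2 differences from the mean of the 2 WT arrays (horizontal axis; bars are 1 SE from limma) for the 20 probe sets of the 9 genes (rows), for Foxo1KO/Foxo1AAA, Foxo1KO and Foxo1AAA cells. Anxa1 1448213_at reaches 3.86 in Foxo1KO cells alone, S100a4 lies at 0.84 in Foxo1KO and at -0.98 in Foxo1AAA cells, and the 3 probe sets of Anxa4 lie above 0 in each of the 3 genotypes.

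S100a10 was bright and close to level. It encodes the S100 protein that does not need calcium to bind its partner, Anxa2. Probe set 1456642_x_at read 13.28 on the Foxo1KO/Foxo1AAA array, 13.54 and 13.60 on the Foxo1KO arrays, 13.29 on the Foxo1AAA array, and 13.50 and 13.40 on the WT arrays. Foxo1KO lay above WT by 0.12 ± 0.10, which was not called, and Foxo1KO/Foxo1AAA minus Foxo1KO gave -0.28, not called either. Its probe sets 1416762_at (13.33 to 13.57) and 1439348_at (7.89 to 8.58) were not called in either comparison. The probe set shared by S100a11, S100a11-ps and Gm12854, 1460351_at, read 11.78 on the Foxo1KO/Foxo1AAA array, 12.31 and 12.37 on the Foxo1KO arrays, 11.84 on the Foxo1AAA array, and 11.98 and 11.82 on the WT arrays. Foxo1KO was highest on it, 0.43 above WT, and Foxo1KO/Foxo1AAA minus Foxo1KO gave -0.56. Which of the listed genes gave the signal cannot be told.

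The relatives and partners of these genes came from lists made with earlier results of these arrays known. Their counts stand beside the shares of all genes given above: 7.34% higher and 6.77% lower in Foxo1KO against WT, 13.9% and 17.5% in Foxo1KO/Foxo1AAA against Foxo1KO, 10.4% and 12.1% in Foxo1AAA against WT, and 12.2% and 10.9% in Foxo1KO/Foxo1AAA against WT cells. With these few genes a list, nothing is read from the counts. The adjusted p-values given for single genes of these lists follow that choice. They describe these arrays and are not independent tests. Of 9 genes of the other galectin list measured, which includes the galectin ligand gene Lgals3bp, 3 rose and 0 fell in Foxo1KO against WT cells (0 lower at an unadjusted p under 0.05, limma), and their median difference was 0.27, beside 0.03 over all genes. Lgals7, known from stratified epithelium, read 6.49 on the Foxo1KO/Foxo1AAA array, 8.45 and 7.90 on the Foxo1KO arrays, 6.11 on the Foxo1AAA array, and 6.49 and 6.42 on the WT arrays. Only Foxo1KO stood apart: Lgals7 rose by 1.73 against WT (adjusted p = 0.000237, limma) and fell by 1.68 in Foxo1KO/Foxo1AAA against Foxo1KO cells (adjusted p = 0.000736). Lgals3 encodes galectin-3, which is abundant in macrophages and in activated T cells. It read 11.32 on the Foxo1KO/Foxo1AAA array, 11.83 and 11.93 on the Foxo1KO arrays, 10.81 on the Foxo1AAA array, and 10.55 and 10.13 on the WT arrays, so WT was lowest. It rose by 1.54 in Foxo1KO (adjusted p = 0.0002, limma) and by 0.98 in Foxo1KO/Foxo1AAA cells (0.00563) against WT.

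Lgals3bp, which encodes a secreted ligand of galectin-3, rose against WT by 0.65 in Foxo1KO/Foxo1AAA (adjusted p = 0.00714, limma), by 0.50 in Foxo1KO (0.0107) and by 0.67 in Foxo1AAA cells (0.00733). The call in Foxo1KO ended without Foxo1KO replicate 1 (0.47), Foxo1KO replicate 2 (0.53) or WT replicate 1 (0.46). Of the 9, the 3 that fell in Foxo1KO/Foxo1AAA against Foxo1KO cells were Lgals3 (-0.56, adjusted p = 0.0406, limma; call lost without either Foxo1KO array), Lgals7 and Lgals12 (-0.70, 0.00474), and 0 rose (0 at an unadjusted p under 0.05). Lgals12 also fell against WT in Foxo1KO/Foxo1AAA (-0.65, 0.00828) and in Foxo1AAA cells (-0.46, 0.0312; call lost without WT replicate 2). In Foxo1AAA against WT cells 1 of 9 rose and 1 fell, and in Foxo1KO/Foxo1AAA against WT cells 2 rose and 1 fell.

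Of 6 other annexin genes measured, 1 rose and 0 fell in Foxo1KO against WT cells (0 lower at an unadjusted p under 0.05, limma), with a median of 0.21. It was Anxa7, at 0.53 (adjusted p = 0.0131), which lost its call without Foxo1KO replicate 2 (0.46) or WT replicate 1 (0.45) and as the mean of its 3 probe sets (0.25). It also rose against WT by 0.64 in Foxo1KO/Foxo1AAA (adjusted p = 0.0112) and by 0.63 in Foxo1AAA cells (0.0129), and both calls ended with the mean of probe sets (0.14 and 0.29). Anxa3, an annexin of neutrophils and other myeloid cells, read 6.57 on the Foxo1KO/Foxo1AAA array, 5.15 and 4.99 on the Foxo1KO arrays, 5.96 on the Foxo1AAA array, and 4.74 and 4.70 on the WT arrays. It was dim in WT cells. It rose by 1.51 in Foxo1KO/Foxo1AAA against Foxo1KO cells (adjusted p = 0.000118, limma), and against WT by 1.85 in Foxo1KO/Foxo1AAA (5.29e-05) and by 1.24 in Foxo1AAA cells (0.000556). Like the myeloid markers Csf1r and Adgre1, but unlike Fcgr1 and S100a8, it was highest on the 2 arrays with the active form. Anxa8 fell by 0.64 in Foxo1KO/Foxo1AAA against Foxo1KO cells (adjusted p = 0.00623) and by 0.50 against WT (0.0206; call lost without WT replicate 2). The counts were 1 risen and 1 fallen in Foxo1KO/Foxo1AAA against Foxo1KO, 2 and 0 in Foxo1AAA against WT, and 2 and 1 in Foxo1KO/Foxo1AAA against WT cells.

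Of 11 genes of the other S100 list measured, 0 rose and 1 fell in Foxo1KO against WT cells (3 higher at an unadjusted p under 0.05, limma), with a median of 0.17. The one that fell, S100pbp (-0.36, adjusted p = 0.0415), encodes a protein that binds an S100 protein and is not one itself. That call did not survive leaving out any replicated array. In Foxo1KO/Foxo1AAA against Foxo1KO cells 2 rose and 2 fell: S100pbp by 0.54 (adjusted p = 0.011, limma) and S100a1 by 0.44 (0.0451) rose, and S100a3 (-0.60, 0.0133) and S100a5 fell. The call of S100a1 ended without Foxo1KO replicate 2 (0.31) or either WT array, and that of S100a3 without Foxo1KO replicate 1 (-0.48). S100a9, a subunit of calprotectin made by neutrophils and monocytes, rose against WT by 1.12 in Foxo1KO/Foxo1AAA (adjusted p = 0.0147, limma) and by 1.12 in Foxo1AAA cells (0.0161). In Foxo1KO cells its 0.63 was not called, but without Foxo1KO replicate 2 it was (0.97). Against WT the counts were 2 risen and 2 fallen both in Foxo1AAA and in Foxo1KO/Foxo1AAA cells. Among those that fell, S100a3 (4.76 to 5.80) and S100a14 (4.55 to 5.08) were dim, as S100a5 was. S100a1 rose by 0.52 in Foxo1AAA (0.0313) and 0.69 in Foxo1KO/Foxo1AAA (0.0103). S100a3 fell by 0.80 (0.00627) and 0.49 (0.0365) in the same cells. S100a14 fell by 0.45 in Foxo1AAA (0.04) and S100a5 by 0.47 in Foxo1KO/Foxo1AAA (0.0357). The calls that ended when 1 array was left out were those of S100a1 in Foxo1AAA (0.54 without WT replicate 1, 0.49 without WT replicate 2), S100a3 in Foxo1KO/Foxo1AAA (-0.50 and -0.47), S100a5 (-0.36 without WT replicate 2, and without either Foxo1KO array) and S100a14 (-0.36 without WT replicate 1, and without either Foxo1KO array).

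**Figure D4:**
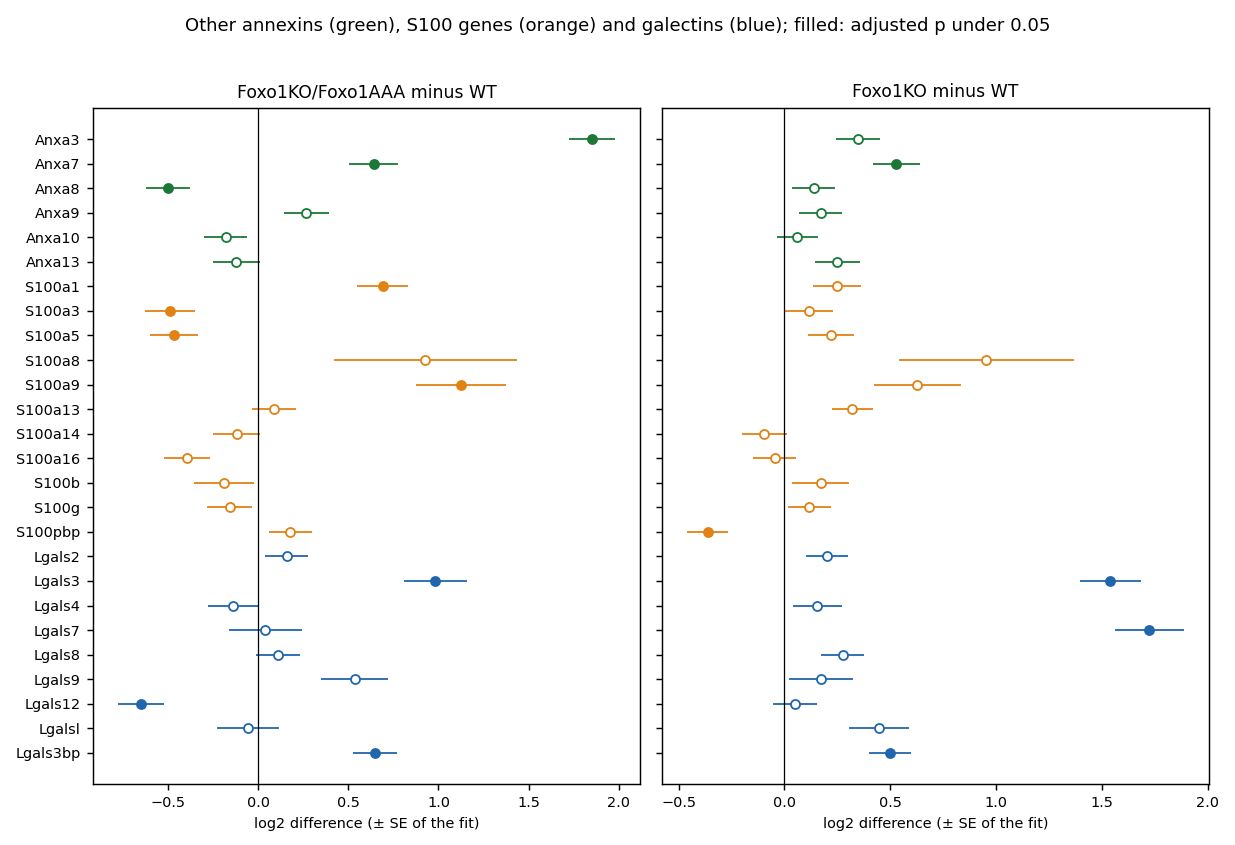
Log2 differences (horizontal axis; bars are 1 SE from limma) of the 26 other annexin, S100 and galectin genes measured (rows), for Foxo1KO/Foxo1AAA minus WT and Foxo1KO minus WT. Filled points were called. Lgals7 and Lgals3 stand out in Foxo1KO at 1.73 and 1.54, and Anxa3 in Foxo1KO/Foxo1AAA at 1.85.

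Of 14 binding partners and receptors measured, 1 rose and 1 fell in Foxo1KO against WT cells, and the median difference was 0.02. Ahnak, which encodes a giant scaffold protein that binds the S100a10 and Anxa2 complex, read 11.47 on the Foxo1KO/Foxo1AAA array, 12.19 and 12.33 on the Foxo1KO arrays, 11.36 on the Foxo1AAA array, and 11.79 and 11.41 on the WT arrays. It rose by 0.66 in Foxo1KO against WT cells (adjusted p = 0.0129, limma), with the call lost without Foxo1KO replicate 1 (0.73), Foxo1KO replicate 2 (0.59) or WT replicate 2 (0.48), and its 4 probe sets averaged 0.32. In Foxo1KO/Foxo1AAA against Foxo1KO cells it fell by 0.79 (adjusted p = 0.00943), a call lost without Foxo1KO replicate 2 (-0.72). Ager, the receptor RAGE that binds several S100 proteins, fell by 0.45 in Foxo1KO against WT cells (adjusted p = 0.0213, limma), a call that did not survive leaving out any replicated array.

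Fpr2 encodes a formyl peptide receptor of myeloid cells at which Anxa1 acts. It read 8.71 on the Foxo1KO/Foxo1AAA array, 7.14 and 6.68 on the Foxo1KO arrays, 8.04 on the Foxo1AAA array, and 6.68 and 6.57 on the WT arrays. It was high on the 2 arrays where most myeloid markers were high and Anxa1 was not. A link among these was not tested. Fpr2 rose by 1.79 in Foxo1KO/Foxo1AAA against Foxo1KO cells (adjusted p = 0.000319, limma), and by 2.08 in Foxo1KO/Foxo1AAA (0.000183) and 1.41 in Foxo1AAA cells (0.00178) against WT. Cacybp, which encodes the binding protein of S100a6, rose by 0.80 in Foxo1KO/Foxo1AAA against Foxo1KO cells (adjusted p = 0.0026, limma), where S100a6 was lower, and against WT by 0.68 in Foxo1KO/Foxo1AAA (0.00694) and 0.56 in Foxo1AAA cells (0.0154; call lost without WT replicate 2). Mgat5, the enzyme that builds branched N-glycans bound by galectins, fell against WT by 0.87 in Foxo1KO/Foxo1AAA (adjusted p = 0.00267, limma) and 0.74 in Foxo1AAA cells (0.00643), and by 0.53 in Foxo1KO/Foxo1AAA against Foxo1KO cells (0.0164; call lost without Foxo1KO replicate 2). The mean of the 3 Mgat5 probe sets gave -0.36, -0.27 and -0.18 for these, and the last 2 lost their calls.

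In all, 2 of the 14 partners rose and 4 fell in Foxo1KO/Foxo1AAA against Foxo1KO cells, 2 rose and 3 fell in Foxo1AAA against WT cells, and 2 rose and 1 fell in Foxo1KO/Foxo1AAA against WT cells. The others that fell were Src, the kinase that phosphorylates Anxa2, Dysf, which encodes the membrane repair protein dysferlin, and Plg, the gene of plasminogen. Plg was dim (5.16 to 5.59). In Foxo1KO cells Src was 0.43 above WT, which was not called. Src fell by 0.72 in Foxo1KO/Foxo1AAA against Foxo1KO cells (adjusted p = 0.00798, limma) and by 0.58 in Foxo1AAA against WT cells (0.0247; call lost without WT replicate 2). Dysf fell by 0.54 in the first of these comparisons (0.0276; call lost without either Foxo1KO array) and Plg by 0.42 in the second (0.037; call lost whichever replicated array was left out). No gene of these 4 lists was called between Foxo1KO/Foxo1AAA and Foxo1AAA cells, and at an unadjusted p under 0.05 1 annexin, 1 galectin and 1 partner were higher, 1 annexin was lower, and 0 S100 genes differed in either direction (limma).

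Some of these calls on relatives and partners changed with the processing. Centring each array on its median ended those of S100a3 (-0.41) and S100a5 (-0.39) in Foxo1KO/Foxo1AAA against WT, of S100a14 (-0.34), Lgals12 (-0.35), Plg (-0.30) and Src (-0.47) in Foxo1AAA against WT, and of Lgals3 (-0.48) in Foxo1KO/Foxo1AAA against Foxo1KO cells. The mean of all probe sets of a gene ended those of Lgals12 in Foxo1AAA against WT (-0.21), of S100pbp (-0.11 in Foxo1KO against WT, 0.32 in Foxo1KO/Foxo1AAA against Foxo1KO) and of S100a1 (0.20 in Foxo1KO/Foxo1AAA against Foxo1KO, 0.08 in Foxo1AAA and 0.40 in Foxo1KO/Foxo1AAA against WT). Leaving out WT replicate 1 added calls for Lgals3 in Foxo1AAA against WT (0.68) and for Dysf against WT in Foxo1KO/Foxo1AAA (-0.62) and Foxo1AAA cells (-0.63). Leaving out Foxo1KO replicate 1 added one for S100a9 in Foxo1KO/Foxo1AAA against Foxo1KO cells (0.83). Src in Foxo1KO against WT cells gained a call with centred arrays (0.42) and with the mean of its probe sets (0.31). It also gained one with dim probe sets left out, with 1 probe set a gene and with a robust variance prior (0.43 in each).

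The genes whose pattern over the 6 arrays was most like that of a member were found by the Euclidean distance between values centred on their own mean, for the 3 members with the widest range. For Anxa1 (range 4.42) they were 1500009L16Rik at 0.54, Ccr1, a chemokine receptor, at 0.77, and Scin, an actin-severing protein, at 0.78 log2 units. Ccr1 read 5.70 on the Foxo1KO/Foxo1AAA array, 9.56 and 9.54 on the Foxo1KO arrays, 5.57 on the Foxo1AAA array, and 5.49 and 5.44 on the WT arrays. For S100a4 (range 1.82) they were Klrb1f at 0.20, Klk1b27 at 0.30 and Sec16b at 0.38, and for S100a6 (range 1.75) Gm5547 at 0.22, 1700097N02Rik at 0.26 and Rap1gap2 at 0.27. Klrb1f, a lectin-like receptor gene, read 6.41 on the Foxo1KO/Foxo1AAA array, 7.62 and 7.84 on the Foxo1KO arrays, 6.04 on the Foxo1AAA array, and 7.18 and 6.63 on the WT arrays, in the order of S100a4.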

How the data were processed

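Transcripts of sorted Treg cells were measured on 6 arrays. The deposited values are on the log2 scale and were made by the authors with RMA, in R 2.15 with limma 3.12.1 also named, per the submitters' processing notes. RMA makes the arrays' distributions alike, which hides a shift common to most genes. Of 45101 probe sets, 34958 had 1 gene in the platform annotation, 932 several and 9211 were not listed there.

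The fit made here used limma 3.58.1 (R 4.3.3) with a mean per group. The residual variance had 2 degrees of freedom, from the Foxo1KO and WT pairs, and the empirical Bayes prior 6.54, with an SD of 0.11. Tests were two-sided, adjusted by Benjamini-Hochberg over all probe sets. The fit recovered known changes between the Foxo1KO and WT groups when tested on simulated data. No change was simulated for the comparisons that use a lone array or for the interaction, and none smaller than a doubling. The number of arrays limits the precision. Replicate arrays correlated at 0.996 in both groups.

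The 10 genes and all lists (other annexins, other S100 genes, other galectins, binding partners and receptors, and markers of Treg and T, myeloid, dendritic, B, CD8 T and NK, stromal and endothelial, and erythroid cells) were chosen with earlier results of these data known. Every probe set of the 10 genes is described, and a gene of the first 4 lists is named with values where its brightest probe set was called in at least 1 comparison of 2 groups, beside markers and the genes most alike in pattern. Anxa11, S100a7a, S100z, Lgals6, Fpr1, Klrb1c and Hbb-bt had no probe set of their own in the annotation used and were not analysed here. Alternatives changed the centring, the filter on dim probe sets, the unit of the test, the variance prior, the replicate block and the arrays included.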

Additional observations from a re-analysis of the deposited data

Results flagged for a closer look

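Over the 98 probe sets of the 10 genes, the relatives, partners and markers examined, the knockout difference with the active form (Foxo1KO/Foxo1AAA minus Foxo1AAA) differed from that without it (Foxo1KO minus WT) in 4 by the interaction test in limma, 1 higher and 3 lower, beside 1.73% higher and 1.25% lower of all probe sets. Anxa1 was picked with these values known. The lists were made with earlier results of these arrays known, so the adjusted p-values given here only describe these arrays. For Anxa1 the 2 differences were 0.48 and 3.86, a change of -3.37 ± 0.39 (SE), and the call ended without Foxo1KO replicate 2 (-3.18). For Lgals7 they were 0.38 and 1.73, a change of -1.34 (adjusted p = 0.0459, limma), lost without Foxo1KO replicate 1 (-1.07) or WT replicate 2 (-1.31). For Anxa8 they were -0.78 and 0.14, a change of -0.92 (adjusted p = 0.0308, limma), lost without Foxo1KO replicate 1 (-0.97), Foxo1KO replicate 2 (-0.87) or WT replicate 1 (-0.90), with the replicate block (-0.92) and with the mean of its probe sets (-0.58). The myeloid marker Cd14 was the one that went up: its differences were 1.49 and -0.05, a change of 1.54 (adjusted p = 0.00554, limma). Each of these rests on 1 Foxo1KO/Foxo1AAA and 1 Foxo1AAA array.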

How the results depend on the processing

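For the 21 probe sets of the 10 genes, the alternatives gave 1156 results with the same direction and call, 26 that gained and 46 that lost a call, and 23 differences, not called in either setting, that changed sign (at most 0.22 in size). The 8 genes called higher in Foxo1KO against WT became 4 to 6 when 1 array was left out, the fewest without Foxo1KO replicate 2, 7 with the replicate block (Anxa5 lost its call) and 7 with the mean of probe sets. Leaving out an array leaves fewer samples. In Foxo1AAA against WT the 0 called higher became 1 (Anxa4) with centred arrays and with the mean of probe sets, and the 2 called lower became 1 to 2 when 1 array was left out. In Foxo1KO/Foxo1AAA against WT the 2 called higher became 1 with the mean of probe sets, and the 0 called lower became 1 (S100a4) with 1 probe set a gene, with an intensity trend, with the mean of probe sets and without WT replicate 2 (0 to 1 over the arrays left out). The 1 gene called lower in the interaction became 2 with 1 probe set a gene (Anxa4), with a trend (Lgals1) and with the mean of probe sets (Anxa4), and 0 to 1 when 1 array was left out. The cause was not tested.

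Among the listed genes, the mean of all probe sets turned the sign of Fcgr1 (1.15 in Foxo1AAA against WT, 0.95 in Foxo1KO/Foxo1AAA against Foxo1KO and 1.22 in Foxo1KO/Foxo1AAA against WT), Lgals2 (-0.46 in Foxo1AAA against WT), Ptprc (-0.31 in Foxo1KO against WT) and Cpne3 (0.35 in Foxo1KO/Foxo1AAA against Foxo1KO), and S100a8 ranged from -0.86 (without Foxo1KO replicate 2) to 0.80 (without Foxo1KO replicate 1) in that last comparison. The labels do not say what a replicate number marks. Over all probe sets the deviations of Foxo1KO and WT arrays of the same number correlated at -0.095, with only 2 pairs, although Eif2s3y was low on replicate 1 (4.05 and 3.91) and high on replicate 2 (9.91 and 10.09) in both groups. With the replicate block 15 of the 48 calls of relatives and partners ended and 0 were added: those of S100pbp and Ager in Foxo1KO against WT, of S100a1, Lgals3, Mgat5 and Dysf in Foxo1KO/Foxo1AAA against Foxo1KO, of S100a1, S100a14, Lgals12, Cacybp, Plg and Src in Foxo1AAA against WT, and of Anxa8, S100a3 and S100a5 in Foxo1KO/Foxo1AAA against WT. Signals close to background or near the top of the scale limit what differences can show.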
